A study of Mus musculus with 8 samples.

Results

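The cytosolic ribosomal protein genes encode the proteins of the ribosome that translates messenger RNAs of nuclear genes. They were taken by symbol from the protein-coding genes of the count table: names made of Rps or Rpl and a number, with Rpsa, Rplp0, Rplp1 and Rplp2, and without the Rps6k kinases. This gave 83 of 49585 genes, 32 of the small subunit (Rps) and 51 of the large subunit (Rpl). Of these, 80 had enough reads to be tested. Rpl10l and Rpl39l had 0 reads in all 8 livers, where a count of 0 allows up to 0.110 counts per 1000000 (CPM) in the library with the smallest scaled total. Rpl3l had between 0 and 3 reads per liver. Fau and Rpl36al also encode ribosomal proteins but do not follow the symbol pattern, and they were kept apart.

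Total RNA was sequenced from 8 livers of male mice fed a high-fat, choline-deficient (HFCD) diet for 3 months from day 21 of age. LP+/+ (3 livers) were the controls, Cre-negative by their labels (Alb-Cre0), although the study's text describes this cohort as Alb-Cre carriers with unaltered Trp53. The labels were followed, and whether controls carried Cre bears on each comparison with LP+/+. Of these, replicates 1 and 2 carried an unrecombined Trp53fl/+ locus, and replicate 3 an unrecombined Trp53wm-R245W/+ locus. LPfl/+ (2 livers) were Alb-CreTG with Trp53fl/+, in which Cre removes 1 Trp53 allele. LP245/+ (3 livers) were Alb-CreTG with Trp53wm-R245W/+, in which Cre turns a wild-type allele into p53R245W. Alb-Cre is driven by the albumin promoter and acts in hepatocytes and cholangiocytes, while RNA came from whole liver with all its other cells. The comparisons ask how loss or mutation of 1 Trp53 allele in these cells changes the liver transcriptome.

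Ribosomal proteins are made in close to equal amounts, and each ribosome holds a single copy of most of them. Their messenger RNAs are abundant, short and of the TOP class: transcription starts at a C that opens a run of pyrimidines, and this 5′ terminal oligopyrimidine tract places their translation under control of mTOR. Rpl5, Rpl11, Rpl23 and Rpl26 link the ribosome to p53, since the first 3 bind Mdm2, the ubiquitin ligase of p53, and Rpl26 promotes translation of p53 mRNA. Loss of a copy of many of these genes causes Diamond-Blackfan anaemia. Retrotransposition has left many processed copies of ribosomal protein mRNAs in the mouse genome, so short reads often match several places.

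The libraries held between 26304526 and 31370714 counts. Cdkn1a, the p21 gene and a p53 target, had 6.62, 4.85 and 6.45 normalized CPM in LP+/+, 2.65 and 3.53 in LPfl/+, with 0.514, 0.898 and 0.966 in LP245/+, so that the 3 genotypes did not overlap. The 6 hepatocyte markers were detected in every liver. Library numbers fell into a first and a second series: all LP245/+ livers were of the first and both LPfl/+ livers of the second, while LP+/+ had replicates 2 and 3 in the first and replicate 1 in the second. LP245/+ and LPfl/+ thus have no series in common, and only a fit through LP+/+ can adjust their comparison for it.

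The 83 genes together took less than 1% of all counts in every liver. Their summed share was 0.758%, 0.671% and 0.707% in LP+/+ (mean 0.712% ± 0.0439 SD, n = 3), 0.747% and 0.788% in LPfl/+ (0.767% ± 0.0288, n = 2), and 0.753%, 0.577% and 0.775% in LP245/+ (0.702% ± 0.109, n = 3). The genotypes overlapped by this measure. As a share of counts of nuclear protein-coding genes they took 0.838%, 0.735% and 0.769% in LP+/+, below the 0.851% and 0.885% of LPfl/+, while LP245/+ overlapped both at 0.856%, 0.641% and 0.881%. In both measures the widest spread was inside LP245/+, whose replicate 2 was the lowest of the 8 livers and whose replicate 3 was the second highest. In whole liver, fewer cells of a type and less RNA per cell cannot be told apart.

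Per length of exon, the tested genes lay far apart. Counts per kilobase of exon per 1000000 scaled counts (RPKM), averaged over the 8 livers, had a median of 28.1 with quartiles at 16.3 and 70.6. The highest were Rplp1, an acidic protein of the ribosomal stalk that recruits translation factors (348), Rpl4 (229) and Rps15 (209). The lowest were Rpl24 (0.247), Rpl23a (0.727) and Rpl27 (2.51). Rpl24 had only 5 to 12 reads per liver and Rpl23a 11 to 24.

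Sequence shared with other genes went along with these levels. Each gene's main coding transcript was cut into windows of 76 bases, the read length, and each window was searched in the transcripts annotated to any other gene, overlapping genes included. The 35 tested genes with at least 50% of windows shared had a median of 23.8 RPKM, and the 45 with less had 43.7. Of the windows, 80.9% were shared in Rpl24 and 81.6% in Rpl23a, against 8.34% in Rpl4. Rps27 had the highest share, 98.5%, and still stood at 53.3 RPKM. Since STAR, when it counts genes, keeps only reads that map to a single place, levels of the genes with shared sequence are uncertain and low readings cannot be taken as low expression. The plot of level against shared sequence gives all 80 genes.

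**Figure D1:**
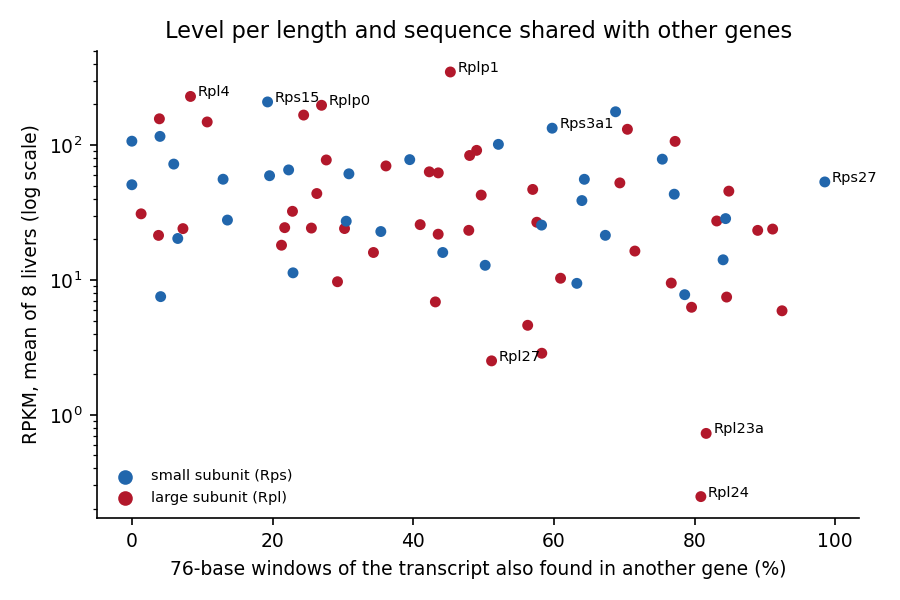
Mean RPKM over the 8 livers (log axis) against the percentage of 76-base windows of each gene's transcript that also occur in another gene, 1 point for each of the 80 tested genes. Rpl24 and Rpl23a, at the bottom, have more than 80% of windows shared, and all 45 genes with under 50% shared lie between 6.87 and 348 RPKM.

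Ribosomal protein genes did not set livers with p53R245W in hepatocytes apart from control livers. In LP245/+ against LP+/+ none of the 80 genes passed the cutoff of an adjusted p of 0.05 and an absolute log2 fold change of 1 (background 0.00606% of all 16496 genes, edgeR's quasi-likelihood test with Benjamini-Hochberg adjustment), and DESeq2 also called 0. The median log2 fold change was 0.00 for the 80 genes and 0.00 for all genes tested, with 39 genes above 0 (background 50.6%) and 41 below. An unadjusted p below 0.05 was reached by 0 of the 80, against 5.93% of all genes, and in none of the 80 did the 2 genotypes separate, against 11.6% of all genes. The 4 highest were Rpl27 (0.19 ± 0.17 SE), Rpl22l1 (0.19 ± 0.25), Rps14 (0.18 ± 0.19) and Rps27 (0.18 ± 0.20). The 4 lowest were Rps3a1 (−0.61 ± 0.30), Rpl23a (−0.19 ± 0.33), Rpl13a (−0.15 ± 0.21) and Rpl10a (−0.14 ± 0.12). Within the first library series alone the median was 0.02, with 45 genes above 0.

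This balance depended on which LP245/+ livers were used. Without LP245/+ replicate 2 the median was 0.11 and 8 genes had an unadjusted p below 0.05, all higher: Rpl5, Rpl9, Rpl17, Rpl35a, Rps14, Rps24, Rps25 and Rps27. Without LP245/+ replicate 3 the median was −0.10 and 5 genes did, all lower: Rpl26, Rpl36a, Rpl37, Rps19 and Rps3a1. Of these, Rps3a1 passed the cutoff (log2 fold change −1.18 ± 0.12 SE, edgeR adjusted p = 0.0282). All genes tested gave 6.90% and 7.76% below an unadjusted p of 0.05 in these 2 fits.

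Most ribosomal protein genes had small positive log2 fold changes in livers with loss of 1 Trp53 allele. In LPfl/+ against LP+/+, 59 of the 80 genes were above 0 (background 49.8%) with a median log2 fold change of 0.05, against 0.00 for all genes tested. None passed the cutoff, for which the background was 0%, and DESeq2 called 0. Rps16 alone had an unadjusted p below 0.05, against 6.89% of all genes. It stood at 26.6, 23.4 and 28.1 normalized CPM in LP+/+ and at 32.5 and 33.1 in LPfl/+, without overlap, but LP245/+ replicate 1 was higher still (35.0), replicate 2 was inside the control range (24.4) and replicate 3 was just above it (28.2). Its log2 fold change was 0.34 ± 0.15 SE, with an unadjusted p of 0.0472 and an adjusted p of 0.721 (edgeR). The genotypes separated for 17 genes, 15 of them higher, against 24.9% of all genes in either direction and 12.6% higher.

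Next to Rps16, the highest log2 fold changes were those of Rpl24 (0.52 ± 0.55 SE), Rpl27 (0.43 ± 0.19) and Rpl15 (0.24 ± 0.18). Rpl27 stood at 3.50, 3.64 and 3.01 normalized CPM in LP+/+ and 4.30 and 4.82 in LPfl/+. The lowest were Rpl7l1 (−0.14 ± 0.13), Rpl23a (−0.12 ± 0.37), Rpl10a (−0.08 ± 0.14) and Rpl37a (−0.06 ± 0.16). Within the second series, which has a single control liver, the median was 0.02 and 46 genes were above 0, and with the library series as a covariate the median was also 0.02. Without LP+/+ replicate 2 the median was 0.00625. Some other signals also separated LPfl/+ from LP+/+, as 24.9% of all genes did. Genes of the mitochondrial genome took 9.70% and 8.0% of counts against 5.88% to 6.90%. Malat1 and Neat1 summed to 2465 and 2633 normalized CPM against 1842 to 2455. The 2455 was that of LP+/+ replicate 1, the control in the library series of LPfl/+. For 4 markers of red blood cells the sums were 333 and 429 against 461 to 649. For 4 proliferation markers they were 10.5 and 11.7 against 14.6 to 15.9. Every red cell and proliferation marker was detected in all livers. Marker sums of hepatocytes, cholangiocytes, macrophages, lymphocytes, plasma cells, endothelial cells and stellate cells overlapped between LPfl/+ and LP+/+. The part of the separated signals in the small shift of the ribosomal protein genes was not tested. The count at an unadjusted p below 0.05 was 0 by DESeq2 and without LP+/+ replicate 2 or LP245/+ replicate 3. All genes gave 3.13%, 4.3% and 8.38% in these fits. The count was 2 without LP245/+ replicate 2, against 6.31% of all genes. Without LP+/+ replicate 1 it was 1, and the gene was Rpl15, not Rps16 (all genes 11.7%). Fits without either LPfl/+ liver leave 1 liver in that group, so their counts are not given singly.

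In the direct comparison of the mutant with the deleted allele most genes were slightly lower with the mutant. In LP245/+ against LPfl/+, 55 of 80 genes were below 0 (background 49.2%), with a median of −0.05 against 0.00 for all genes, and of −0.01 with the library series as a covariate. None passed the cutoff (background 0%) by edgeR or DESeq2. By either tool 0 had an unadjusted p below 0.05, against 8.51% of all genes in edgeR and 4.11% in DESeq2. The 2 genotypes separated for 7 genes, all lower in LP245/+ (background 13.3%, and 25.4% in either direction). The lowest log2 fold changes were Rpl24 (−0.64 ± 0.56 SE), Rps3a1 (−0.58 ± 0.33), Rpl15 (−0.30 ± 0.18) and Rpl27a (−0.26 ± 0.26), and the highest were Rpl22l1 (0.16 ± 0.28), Rpl22 (0.15 ± 0.17), Rpl7l1 (0.13 ± 0.13) and Rpl17 (0.13 ± 0.18). The direction rested on LP245/+ replicate 2, without which the median was 0.09. Leaving out LP245/+ replicate 1, 2 or 3 gave 4, 1 and 7 of the 80 genes with an unadjusted p below 0.05, against 6.45%, 7.37% and 10.8% of all genes in the same fits. All 3 comparisons share livers, so their values are not independent.

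The precision was enough to bound most genes. The median SE of a log2 fold change was 0.14, 0.15 and 0.15 in the 3 comparisons. The range of 2 SE either side stayed within −1 and 1 for 78, 79 and 78 of the 80 genes, the exceptions being Rpl24, with few reads, in all 3 and Rps3a1 in both comparisons of LP245/+. The plot of fold changes shows each gene with its SE.

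**Figure D2:**
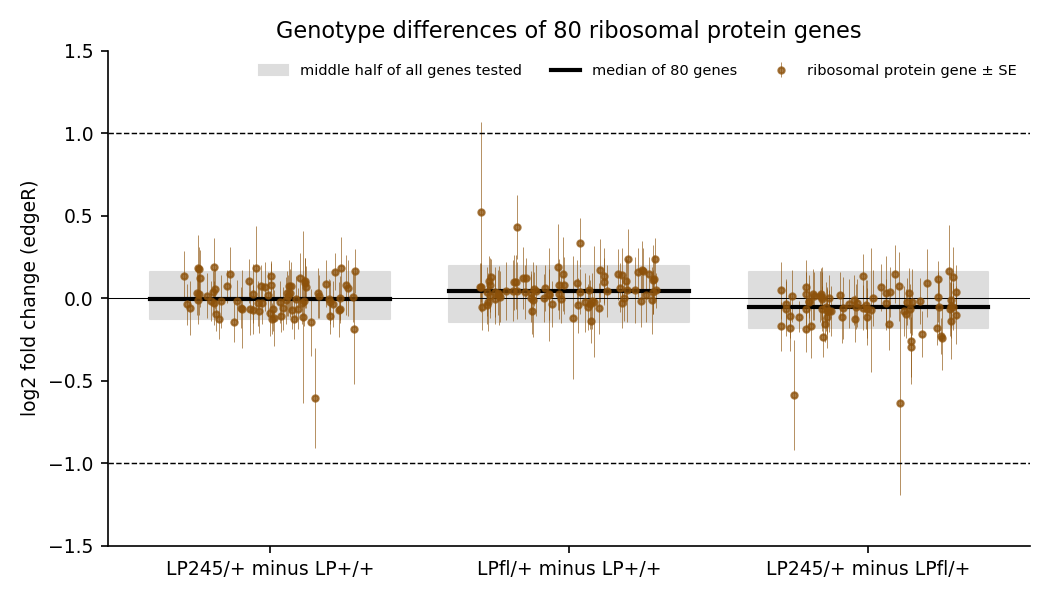
Log2 fold changes (edgeR) of the 80 tested ribosomal protein genes in the 3 genotype comparisons, each point a gene with its SE and the black bar their median. Grey bands run from the lower to the upper quartile of all 16496 genes and dashed lines mark −1 and 1. The medians are 0.00, 0.05 and −0.05, and no point reaches a dashed line.

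Genes grouped by subunit or by Diamond-Blackfan anaemia had medians between −0.06 and 0.10, and those of the stalk went lower. The 32 small-subunit genes had medians of 0.03, 0.09 and −0.05 in LP245/+ against LP+/+, LPfl/+ against LP+/+ and LP245/+ against LPfl/+. The 48 tested large-subunit genes had −0.02, 0.04 and −0.05. Among them, the 3 stalk genes Rplp0, Rplp1 and Rplp2 had −0.12, 0.05 and −0.17. The 18 genes of Diamond-Blackfan anaemia had 0.02, 0.10 and −0.06. In LPfl/+ against LP+/+, 16 of them were above 0 and 2 below (background 49.8% above). An unadjusted p below 0.05 was reached by 0 of the 18 in any comparison, against 5.93%, 6.89% and 8.51% of all genes. At such shares a list of 18 would hold few or no such genes.

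The members that connect the ribosome to p53 overlapped between p53R245W and control livers. In the list of 13 genes known to bind Mdm2 or act on p53 translation, 8, 12 and 4 were above 0 in the 3 comparisons. Of all 80 tested genes, 39, 59 and 25 were above 0. The background above 0 was 50.6% in LP245/+ against LP+/+ and 49.8% in LPfl/+ against LP+/+. In LP245/+ against LPfl/+, 49.2% of all genes were below 0. None of the 13 had an unadjusted p below 0.05, against 5.93%, 6.89% and 8.51% of all genes. At such shares a list of 13 would hold few or no such genes. Rpl5, which forms the 5S particle that inhibits Mdm2, stood at 20.8, 20.9 and 22.0 normalized CPM in LP+/+, 23.1 and 27.1 in LPfl/+, against 26.3, 20.5 and 24.5 in LP245/+. Its LPfl/+ livers were above all controls (log2 fold change 0.24 ± 0.13 SE, edgeR adjusted p = 0.757), while LP245/+ replicate 2 was below them. Rpl11, its partner in that particle, had 27.4, 27.3 and 26.4 in LP+/+, 27.6 and 27.1 in LPfl/+, compared with 28.7, 22.4 and 35.1 in LP245/+. The controls and LPfl/+ lay within a narrow band that LP245/+ spanned on both sides. Rpl23 and Rpl26 did likewise on the low side, at 108 and 91.9 in LP245/+ replicate 2 against 132 to 148 and 114 to 131 in LP+/+.

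No paralogue among the 80 tested genes passed the cutoff, and the Rps3a copies are described further on. Rps27l is a p53 target that encodes a close relative of Rps27 and, unlike it, has little sequence shared with other genes (4.0% of windows). It had 85.8, 96.3 and 99.6 normalized CPM in LP+/+, 91.5 and 97.6 in LPfl/+, against 93.0, 78.8 and 114 in LP245/+, with log2 fold changes of 0.02 ± 0.14, 0.01 ± 0.15 and 0.01 ± 0.15 SE in the 3 comparisons. Rps27 had 50.5, 47.2 and 57.0 in LP+/+, 55.5 and 58.8 in LPfl/+, with 58.8, 39.4 and 77.3 in LP245/+. In both genes LP245/+ held the lowest and the highest liver. Rpl22l1, the paralogue of Rpl22, had 4.51 to 6.56 in LP+/+, 4.57 to 6.37 in LPfl/+ and 4.17 to 7.87 in LP245/+. Per length of exon it stood at 2.86 RPKM, below the 30.9 RPKM of Rpl22, but 58.3% of its windows were shared against 1.32% in Rpl22, so its level is uncertain.

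The largest shared movement was between 2 livers of the same genotype. Each gene's log2 CPM was set against its own mean over the 8 livers. In LP245/+ replicate 2, 79 of the 80 genes were below their mean, with a median of −0.29. In LP245/+ replicate 3, 69 were above, with a median of 0.22. Of all 16496 genes tested, 7713 were below in replicate 2 and 8149 above in replicate 3. The medians of the 80 genes in the other 6 livers lay between −0.06 and 0.05. From replicate 2 to replicate 3 the 80 genes differed by a median of 0.51 on the log2 scale (1.42-fold). In replicate 3, 73 of the 80 were higher. All genes tested had a median of −0.01, with 7806 of 16496 higher. LP245/+ replicate 2 held the lowest of the 8 values for 65 of the 80 genes, as for 9.94% of all genes, and replicate 3 held the highest for 50, as for 16.1% of all genes. The 2 livers had the lowest and the highest median of the 8. Their difference was larger than the median of any genotype comparison in the fits with all 8 livers. Those medians compare groups of 2 or 3 livers, not 2 extreme single livers, so the sizes are not directly comparable. The difference between the 2 livers is a description, not a test. This difference kept its direction under each scaling tried, with −0.30 to −0.32 in replicate 2 and 0.13 to 0.23 in replicate 3.

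**Figure D3:**
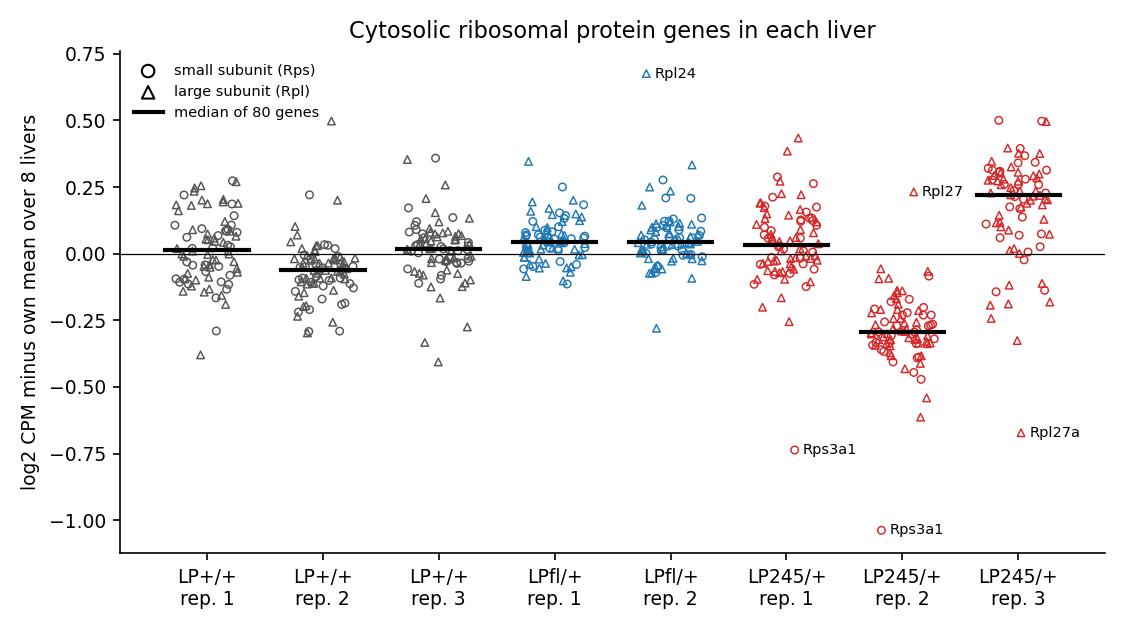
Log2 CPM of each of the 80 tested genes minus its own mean over the 8 livers, by liver, with circles for small-subunit and triangles for large-subunit genes and a black bar at the median. LP245/+ replicate 2 lies almost wholly below 0 (median −0.29) and LP245/+ replicate 3 mostly above (0.22), with Rps3a1 and Rpl27a apart from the rest.

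Much of a gene's spread over the livers was shared with the other genes. A gene's SD over the 8 livers had a median of 0.17 on the log2 scale around its own mean, and of 0.0876 once the median of all 80 genes was taken off each liver. The median coefficient of variation was 11.3% over all 80 genes. It was 9.23% for 2621 other protein-coding genes with a mean between 33.0 and 110 CPM, the quartiles of the ribosomal protein genes. The 80 include genes outside this band, so the sets differ in level.

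Some other genes of translation shifted with them in these 2 livers. The 19 other translation genes of the TOP class, among them elongation factors, Npm1 and Fau, had medians of −0.17 in LP245/+ replicate 2 and 0.21 in replicate 3. Mitochondrial ribosomal proteins, which are not of that class, had −0.12 and 0.09 (77 genes). In LP+/+ replicate 3 they had 0.08. The 8 tested host genes of small nucleolar RNAs had −0.19 and 0.16, but −0.21 in LP+/+ replicate 1, so that these lists also moved in livers where the ribosomal protein genes stayed near their means. The 36 genes of ribosome biogenesis had 0.00 and 0.01, and the 12 of RNA polymerase I, which transcribes ribosomal RNA, 0.02 and 0.07. The medians of both lists of factors that build ribosomes were thus close to 0 in LP245/+ replicate 2.

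Transcript length moved the same way, to a smaller extent. Other protein-coding genes with a longest transcript under 1000 bases had medians of −0.09 and 0.06 in LP245/+ replicates 2 and 3 (492 genes), and those of at least 5000 bases had 0.08 and −0.07 (3079 genes). Markers of red blood cells summed to 312 normalized CPM in replicate 2 and 620 in replicate 3, against 461 to 649 in LP+/+. The LPfl/+ livers were also low, at 333 and 429, where the medians of the ribosomal protein genes were 0.05 in both. Genes of the mitochondrial genome took 7.57% and 9.70% of counts, and 8.78% in LP245/+ replicate 1, all above LP+/+, as in LPfl/+. Malat1 and Neat1, RNAs kept in the nucleus, summed to 2354 and 2127, inside the range of 1842 to 2455 in LP+/+. The part of length, red cells and mitochondrial RNA in the shift was not tested.

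**Figure D4:**
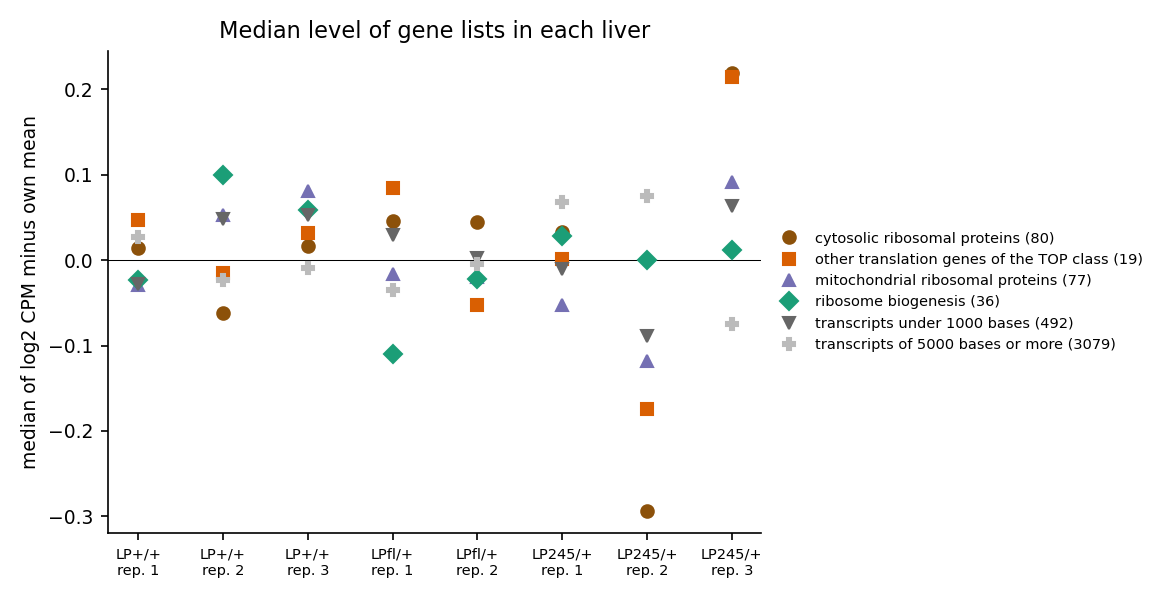
Median over the genes of a list of log2 CPM minus the gene's own mean over 8 livers, by liver, with the number of tested genes in the legend. Cytosolic ribosomal proteins and other translation genes of the TOP class have their extremes in LP245/+ replicates 2 and 3 (−0.29 and −0.17, then 0.22 and 0.21), while ribosome biogenesis stays at 0.00 and 0.01 there.

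The start sites show what the TOP class looks like in these genes. RefSeq promoter windows were found for 63 of the 83 genes. On the gene's strand, a run of at least 7 bases of only C or T overlapped the stretch from 5 bases before to 5 bases after the annotated start in 29 of the 63 (46.0%), against 4249 of 27025 genes (15.7%). Below are 50 bases of GRCm38.p6, 30 before and 20 from the annotated start, with the run in capitals, for genes at the ends of the comparisons or of single livers. The annotated starts are not exact, so a run may begin before or after the C at which transcription is known to start.
Rpl27a (chr7:109519165-109519214, plus strand, run of 20 bases): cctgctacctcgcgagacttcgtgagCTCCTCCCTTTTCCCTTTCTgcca
Rpl15 (chr14:18270967-18271016, minus strand, run of 17 bases): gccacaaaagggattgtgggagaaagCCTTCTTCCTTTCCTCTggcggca
Rps27 (chr3:90213629-90213678, minus strand, run of 9 bases): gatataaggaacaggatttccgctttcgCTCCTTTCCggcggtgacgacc
Rplp2 (chr7:141447621-141447670, plus strand, run of 10 bases): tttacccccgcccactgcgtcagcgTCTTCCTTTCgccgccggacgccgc
Rplp0 (chr5:115559437-115559486, plus strand, run of 4 bases): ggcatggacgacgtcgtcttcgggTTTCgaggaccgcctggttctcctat
Rps3a1 (chr3:86142649-86142698, minus strand, run of 1 base): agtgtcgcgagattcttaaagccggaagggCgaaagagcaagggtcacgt
Genes with and without a run at the annotated start had close medians in both livers. In LP245/+ replicate 2 the median deviation was −0.30 for 28 tested genes with a run of at least 7 bases and −0.29 for 32 with a shorter one, and in replicate 3 it was 0.24 and 0.22.

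A few genes left the others in single livers. Rpl27a, with the longest run shown above, had 49.5, 36.2 and 44.8 normalized CPM in LP+/+, 47.9 and 51.4 in LPfl/+, against 58.5, 39.1 and 27.1 in LP245/+. LP245/+ replicate 3, high for most genes, was here the lowest liver, 0.89 below the liver's median deviation on the log2 scale. The stalk proteins Rplp1 and Rplp2 were also low there, by 0.41 and 0.46. Rpl10a and Rpl36 departed to a like extent (−0.41 and −0.40), and the third stalk gene, Rplp0, was 0.12 above its own mean in that liver. Rplp1 had 181, 146 and 206 in LP+/+, 198 and 170 in LPfl/+, compared with 201, 138 and 151 in LP245/+. Rplp2 had 76.5, 57.9 and 69.1 in LP+/+, 73.1 and 71.4 in LPfl/+, against 70.2, 60.3 and 56.1 in LP245/+. For Rplp2 the LP245/+ livers were below both LPfl/+ livers (log2 fold change −0.22 ± 0.14 SE, edgeR adjusted p = 0.722) but overlapped LP+/+. Rpl27, in the other direction, was 0.53 above the liver's median deviation in LP245/+ replicate 2. Only 4 genes had such a departure of more than 0.5 in any liver: Rpl27a, Rps3a1, Rpl24 and Rpl27.

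Rplp0, the third stalk protein, served as the reference gene of the study's quantitative PCR. That PCR compared livers on regular chow with livers on the HFCD diet, and liver tumours of other genotypes. The 8 livers here cover neither comparison, so their values do not test Rplp0 as a reference there. It had 371, 302 and 322 normalized CPM in LP+/+, 330 and 334 in LPfl/+, with 318, 286 and 353 in LP245/+, and its coefficient of variation of 8.29% was the seventh lowest of the 80 genes. Its log2 fold changes were −0.06 ± 0.12, 0.00 ± 0.14 and −0.06 ± 0.14 SE in the 3 comparisons, with edgeR adjusted p = 0.959 in the first. The genotypes overlapped, and LP245/+ replicate 2 was the lowest liver. Rpsa, which folds into the small subunit and is also known as a laminin receptor, had 280, 216 and 237 in LP+/+, 260 and 263 in LPfl/+, against 249, 213 and 258 in LP245/+. The PCR primers amplify 62 bases of the Rplp0 coding sequence and match transcript Rplp0-201 at bases 721 to 740 (forward) and 765 to 782 (reverse, opposite strand).
Rplp0 forward primer: ccctgaagtgctcgacatca
Rplp0 reverse primer: tgcggacaccctccagaa

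Rps3a1 had the largest departure from its own mean in a single liver, and counts at its copies departed in the same livers. Rps3a1 encodes a small-subunit protein near the mRNA exit channel. In GENCODE M21 it lies on chromosome 3 at 86137940 to 86142702 (GRCm38, minus strand), while Rps3a2 (chr14:88123017-88123808) and Rps3a3 (chr13:108670603-108671397) are annotated as processed pseudogenes and so were not among the 83. Across the 795 bases of the Rps3a1 coding sequence, Rps3a2 had 4 mismatches and 3 gap bases (99.5% identity) and Rps3a3 had 9 mismatches (98.9%). Of the 720 windows of 76 bases, 466 were identical in Rps3a2 and 226 in Rps3a3. A read that fills such a window cannot by itself tell the loci apart, although its mate in the read pair may. The stretch of bases 185 to 260 of the coding sequence (GENCODE M21 transcripts) is a read-length window with the most differences, added over both copies. Only windows without a gap in either copy were considered. Capitals in Rps3a1 mark bases where either copy differs, and capitals in a copy mark its own differences from Rps3a1.
Rps3a1: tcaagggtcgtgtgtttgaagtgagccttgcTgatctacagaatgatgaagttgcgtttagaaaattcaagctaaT
Rps3a2: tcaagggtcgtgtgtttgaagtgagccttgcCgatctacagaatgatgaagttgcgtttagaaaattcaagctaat
Rps3a3: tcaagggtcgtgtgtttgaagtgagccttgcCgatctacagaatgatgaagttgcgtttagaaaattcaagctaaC

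In the LP+/+ livers Rps3a1 had 4386, 4264 and 4775 reads, the LPfl/+ livers had 4094 and 4182, and LP245/+ had 2014, 1671 and 4529. LP245/+ replicates 1 and 2 thus stood at 0.496 and 0.402 of the median normalized level of the other 6 livers, and LP245/+ replicate 3, at 162 normalized CPM, was slightly above the LP+/+ and LPfl/+ livers (144 to 158). At Rps3a3 the LP+/+ livers had 10, 15 and 5 reads and the LPfl/+ livers 9 and 10, while LP245/+ had 847, 710 and 10. At Rps3a2 the LP+/+ livers had 13, 12 and 17 reads and the LPfl/+ livers 9 and 11, while LP245/+ had 158, 129 and 10. The same 2 livers were high at both copies, 89.3 and 73.2 times the median of the others at Rps3a3 and 14.6 and 11.6 times at Rps3a2.

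Among the reads of the 3 loci, Rps3a1 took 66.7% in LP245/+ replicate 1 (exact 95% interval for counting error 65.0 to 68.4) and 66.6% in replicate 2 (64.7 to 68.4), against 99.4% to 99.6% in the other 6 livers. Rps3a3 took 28.1% and 28.3%, and Rps3a2 5.23% and 5.14%. The intervals of the 2 livers overlapped. Added together, the 3 loci had 111 and 90.1 normalized CPM in these livers, 0.739 and 0.601 of the median of the other 6. The reads gained at the copies were thus fewer than those missing at Rps3a1. LP245/+ replicate 2 was low for most ribosomal protein genes (median deviation −0.29), and the part of this in its 0.601 was not tested. With the 3 loci counted as 1 gene, the log2 fold change in LP245/+ against LP+/+ was −0.32 ± 0.19 SE (edgeR adjusted p = 0.836), against −0.61 ± 0.30 (adjusted p = 0.831) for Rps3a1 alone.

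At the copies the fitted log2 fold changes in LP245/+ against LP+/+ were 2.92 ± 0.76 SE for Rps3a2 and 5.80 ± 1.23 for Rps3a3, both with an adjusted p of 0.795 by edgeR. The call depended on the fit: DESeq2 gave Rps3a3 an adjusted p of 0.0145, edgeR with no filter on low counts gave adjusted p = 0.0161 for Rps3a2 and 0.000135 for Rps3a3, and edgeR without LP245/+ replicate 3 gave 0.00408 and 0.000271. Against LPfl/+ the adjusted p were 0.00689 and 0.000864 by edgeR with no filter on low counts. Since LP245/+ replicate 3 had control levels at all 3 loci, these values rest on 2 of the 3 livers. The libraries of both are of the first series, as are those of LP245/+ replicate 3 and of LP+/+ replicates 2 and 3, which had the usual split.

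**Figure D5:**
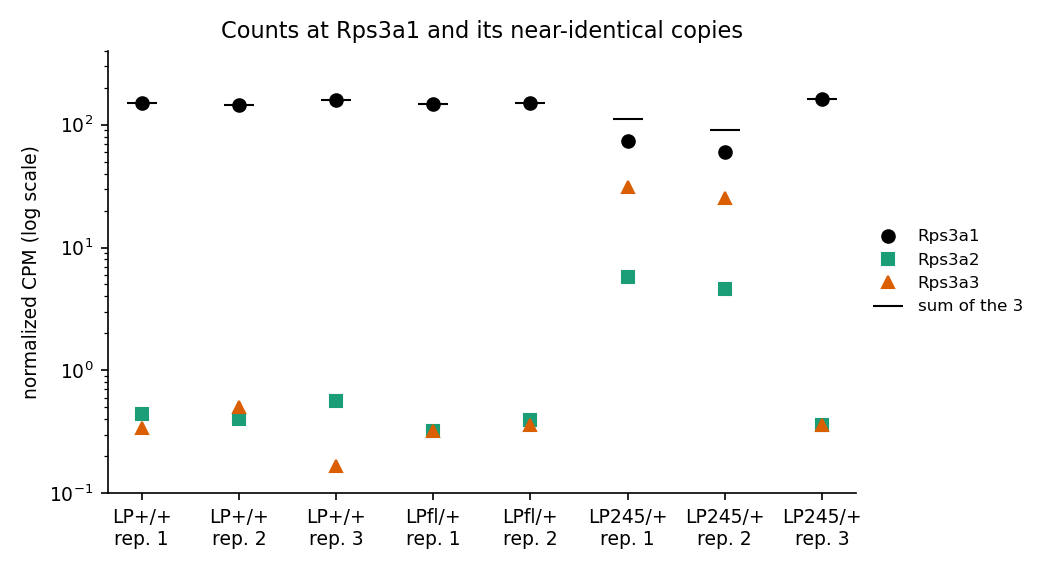
Normalized CPM (log axis) at Rps3a1, Rps3a2 and Rps3a3 and their sum in each of the 8 livers, 1 point per locus and liver. In LP245/+ replicates 1 and 2, Rps3a1 is at 73.9 and 60.0 while Rps3a3 is at 31.1 and 25.5, and in the other 6 livers Rps3a2 and Rps3a3 both lie between 0.165 and 0.563.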

How the data were processed

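Liver RNA was purified with TRIzol, and strand-specific total RNA libraries (TruSeq) were sequenced on a HiSeq4000 as 76-base read pairs. The authors aligned reads with STAR to GRCm38 and deposited raw counts per Ensembl gene for each liver. The STAR version, GENCODE release and counted strand are not given in the sources used here, so overlapping genes on opposite strands may share reads. Identifiers were matched to GENCODE M21 symbols (43749 of 49585 with version, 259 without a symbol).

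All 16496 genes that passed filterByExpr were fitted across the 8 livers with edgeR 4.0.16 (R 4.3.3, TMM, quasi-likelihood F test, genotype only), and p-values were adjusted over all of them by the Benjamini-Hochberg method. The cutoff was an adjusted p of 0.05 and an absolute log2 fold change of 1. SE is the log2 fold change over the root of its F. Normalized CPM are counts per 1000000 of TMM-scaled totals, and log2 CPM used a prior count of 2. RPKM used the union of exons. DESeq2 1.42.0, other scalings and filters, a library-series covariate, a replicate block and fits without single livers were the alternatives. The scripts were tested on simulated data.

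The genes named in every comparison were Rps27l, Rps27, Rps3a1 to Rps3a3, Rpl22, Rpl22l1, Rpl3l, Rpl10l, Rpl39l, Rplp0 to Rplp2, Rpsa, Rpl5, Rpl11, Rpl23 and Rpl26. To these were added, in each comparison, any gene past the cutoff and the 4 highest and 4 lowest log2 fold changes, and for levels the 3 highest and 3 lowest RPKM. The members and lists were chosen with earlier results of these data known. Livers are separate animals, and no 2 libraries agreed within sampling noise (lowest chi-square per gene 19.8 over 28 pairs). Replicate numbers did not pair livers: same-numbered livers of different genotypes correlated at −0.08 to 0.03. Intervals and floors cover counting error only.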

Additional observations from a re-analysis of the deposited data

How the results depend on the processing

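The number of ribosomal protein genes past the cutoff was 0 in every comparison and every alternative run, except for Rps3a1 without LP245/+ replicate 3. In LP245/+ against LP+/+, the count at an unadjusted p below 0.05 was 0 in the main fit. It was 1, each time Rps3a1, with the library total only, no filter on low counts and the replicate block. All genes gave 5.27%, 4.82% and 5.36% in these fits. In LPfl/+ against LP+/+ the count was 0 in place of 1 by DESeq2 and with the library series as a covariate (all genes 3.13% and 5.37%). It was 2 with the library total only (all genes 6.55%) and with TMM without ribosomal protein genes (6.9%). At least 10 counts in every liver (7%) or only the 2 genotypes compared (7.36%) also gave 2. The median of this comparison moved from 0.05 to 0.11 with the library total only and to 0.10 with the replicate block. In LP245/+ against LPfl/+ the count was 3 with the library total only, and 1 with no filter on low counts and with the replicate block. All genes gave 8.41%, 6.54% and 7.25% in these fits. Leaving out single livers gave 0 to 1 genes past the cutoff in LP245/+ against LP+/+, with medians of −0.10 to 0.11. At an unadjusted p below 0.05 there were 0 to 8, against 3.87% to 7.76% of all genes. In LPfl/+ against LP+/+ the counts were 0 and 0 to 2 (medians 0.00625 to 0.0704, all genes 4.3% to 11.7%). In LP245/+ against LPfl/+ they were 0 and 0 to 7 (medians −0.16 to 0.09, all genes 6.45% to 10.8%). Summed shares then ran from 0.689% to 0.732% in LP+/+, 0.747% to 0.788% in LPfl/+ and 0.665% to 0.764% in LP245/+. Fits without 2 of the 3 LP245/+ livers, added after seeing the data, assume that the lone liver varies like the other groups. Without LP245/+ replicates 1 and 2, 22 and 16 genes had an unadjusted p below 0.05 against LP+/+ and LPfl/+, with medians of 0.21 and 0.19 (all genes 9.01% and 7.9%). Without LP245/+ replicates 2 and 3 there were 5 and 3 (all genes 7.21% and 7.93%). The other scalings of single-liver medians and the summed Rps3a count were also chosen after seeing the data. As a share of nuclear protein-coding counts the genes took a mean of 0.781% in LP+/+ and 0.868% in LPfl/+, without overlap between these 2 genotypes. With the longest transcript as the length the median level was 55.1 RPKM in place of 28.1. Small fold changes had no stable sign: of 25 named tested genes, 21, 16 and 21 changed sign in at least 1 alternative in the 3 comparisons, and none of these changes involved a value past the cutoff. The causes of these shifts were not tested. Depth limits what can be said of Rpl24 and Rpl23a, with 5 to 12 and 11 to 24 reads per liver.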

Other observations

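Cd1d2, a lipid antigen-presenting gene that GENCODE M21 annotates as a polymorphic pseudogene, had the same pattern over the livers as the Rps3a copies. It was looked up after the values of Rps3a1 were seen, as a gene of the chromosome of Rps3a1, whereas Rps3a2 and Rps3a3 lie on others. How many other genes have this pattern was not counted. At Cd1d2 the LP+/+ livers had 4, 6 and 7 reads, the LPfl/+ livers 5 and 3, and the LP245/+ livers 230, 203 and 7. In normalized CPM, LP245/+ replicates 1 and 2 were at 8.44 and 7.29 and the other 6 livers at 0.107 to 0.250. LP245/+ replicate 3, at 0.250, was close to the highest control, at 0.232. Its log2 fold change against LP+/+ was 4.78 ± 1.02 SE (edgeR adjusted p = 0.795). Cd1d2 lies on chromosome 3 at 86986551 to 86989780 (GRCm38, plus strand), 843849 bases from Rps3a1. The 3 LP245/+ livers have the same genotype in their labels. The strain background of the animals is not given in the sources used here, and its part in the counts at Cd1d2 and the Rps3a loci was not tested.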
